A study of Mus musculus with 4 samples.

Results

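The RAS-RAF and MAP kinase cascade was examined as 42 named genes: the RAS GTPases, the adaptors and exchange factors that load them, their GTPase-activating proteins, the RAF kinases, the kinases of the downstream tiers and the kinases that MAP kinases activate. The 42 were a list of names chosen with earlier results of these data known, so shares of the list set beside all genes are descriptions. The array annotation named 12393 genes singly. A gene was represented by the probe set that carried only its symbol and had the highest mean signal over the 4 arrays. Of the 42, 37 had such a probe set, 32 passed the filter on dim probe sets and were tested, and 5 lay below it. No probe set in the table carried Hras, Map2k7, Mapk3, Rps6ka1 or Mapkapk3 as its only symbol, so these 5 were not analysed here.

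RNA came from cultures of NF639, a line established from a mammary tumour of a mouse carrying the neu (ErbB2) oncogene under the mouse mammary tumour virus promoter. The compared groups were a pool of NF639 cells resistant to epigallocatechin-3-gallate (EGCG), a green tea polyphenol, with 2 arrays, and the original NF639 population, with 2 arrays. Both groups carry the same neu-driven tumour background, the resistant group is a pool rather than single clones, and the labels do not say whether EGCG was present at harvest. The RNA came from separate experiments, and each RNA was hybridised to an Affymetrix Mouse 430A 2.0 array.

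As background, ErbB receptors recruit the adaptors Shc1 and Grb2, and Grb2 brings the exchange factor Sos to the membrane, where it loads RAS with GTP. GTP-bound RAS recruits RAF, which phosphorylates the MAP2 kinases of the ERK branch, which phosphorylate ERK. Parallel three-tier modules, fed by MAP3 kinases that answer to stress and cytokines, end in the JNK and p38 kinases. The cascade is regulated mostly by phosphorylation and by binding of GTP, which transcript levels do not measure.

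Values are MAS5 signals on a linear scale, and fold changes are resistant minus original on the log2(signal + 3) scale with limma's standard error (SE). The median signal was 128.65 on Resistant 1 and 113.95 on Resistant 2, and 135.25 on Original 1 and 115.15 on Original 2. It was thus lower on the arrays numbered 2. The 7 probe sets of spiked hybridisation controls went the other way and were brighter on the arrays numbered 2. Their signals were 1.48 to 2.29 times higher in the resistant pool and 1.39 to 2.11 times higher in the original population. Differences are therefore also given within each replicate number. The array of Original 2 stood apart in its 18S ribosomal RNA probe sets, with median signals of 277.6 and 373.7 on the resistant arrays, 269.3 on Original 1 and 834.9 on Original 2. Among 6 markers fixed for a mammary epithelial tumour line, Erbb2 was measured, with signals of 280.7 and 326.2 on the resistant arrays and 319.7 and 299.4 on the original ones. Krt8, Krt18, Krt19, Epcam and Cdh1 had mean signals below the filter, while the mesenchymal intermediate filament gene Vim had signals of at least 15875.5 on every array and a log2 fold change of -0.07. The other 4 mesenchymal markers had positive values: Acta2 1.79, Col1a1 0.99, Fn1 0.42 and Cdh2 0.29. None of the 5 passed the limma test, and Acta2, Col1a1 and Fn1 passed in a fit with the replicate number as a term. Acta2 differed by 0.32 within replicate number 1 and by 3.26 within number 2. The fit with that term took its errors from a trend of variance with signal shared by all probe sets, so this gap did not enter. The part of these marker differences in the cascade values was not tested. The epithelial label was thus not borne out by 5 of its 6 fixed markers at this filter, which is a percentile of probe set means and no call of absence. Krt8 lay around the filter's signal of 49.1, with 62.9 and 27.5 on the resistant arrays and 47.4 and 53.1 on the original ones. Of 4 leukocyte markers 3, of 3 endothelial markers 3 and of 2 measured adipocyte markers 2 also lay below the filter.

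Which cascade transcripts differ in abundance between the resistant pool and the original population was the question of the comparison. With limma and Benjamini-Hochberg adjustment over 13576 probe sets, 0 of the 32 tested cascade genes passed the threshold of 0.05, where 0.226% of the 7510 tested genes passed. The gene nearest to it was Mapk12, which encodes p38 gamma, with a log2 fold change of 0.93 ± 0.222 (SE) and an adjusted p of 0.216. Mapk12 was measured by 1 probe set only, so no further probe set could be set beside it. At an unadjusted p under 0.05 there were 6 cascade genes (18.8%), against 7.9% of all tested genes. Positive values were those of Mapk12, Mapk11, Map2k4 and Rasa1, in a direction in which 3.95% of all tested genes reached that p. Negative values were those of Map2k1 and Mapk6, in a direction in which 3.94% did. The count of 6 was lower in every fit with 1 array left out, as given in the closing section. The median log2 fold change of the 32 genes was 0.11 (SD 0.324 between genes), beside a median of 0.02 over all tested genes. Of the 32, 28 (87.5%) differed by less than 0.5 on the log2 scale, against 88.7% of all tested genes, and 0 differed by 1 or more, against 1.84%.

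Both resistant arrays lay above both original arrays for 9 cascade genes (28.1%), against 19.8% of all tested genes, and below them for 4 (12.5%), against 17.3%. The other 19 overlapped. Together 40.6% of the cascade genes did not overlap, beside 37.1% of all tested genes. With 2 arrays against 2, an exact permutation test of a single gene cannot give a two-sided p under 0.333, so absence of overlap alone does not pass a test.

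**Figure D1:**
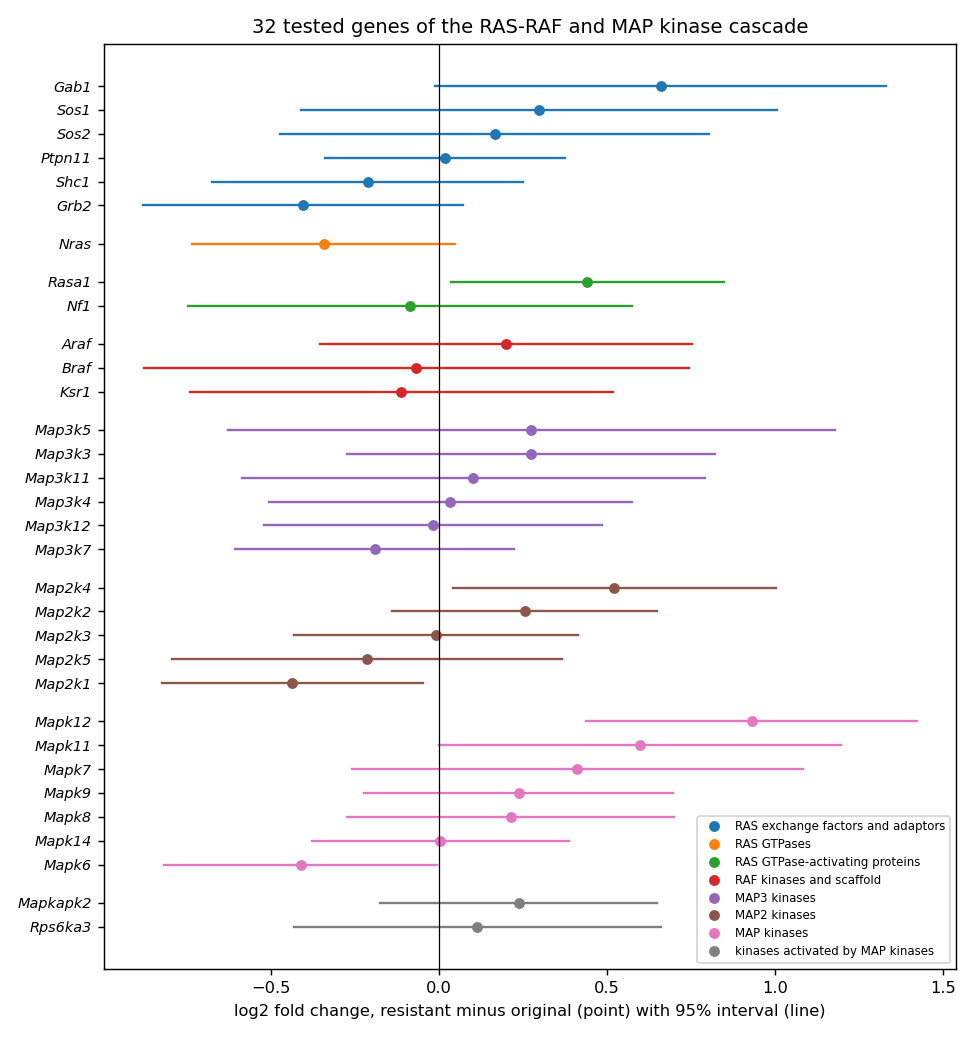
The horizontal axis gives the log2 fold change of the 32 tested cascade genes, resistant minus original, as a point with the 95% interval of the limma fit, and the genes run down the page by role. Mapk12 has the largest value at 0.93, and the intervals of Mapk12, Mapk11, Map2k4 and Rasa1 lie above 0 and those of Map2k1 and Mapk6 below 0 before adjustment over all probe sets.

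Among the adaptors, Gab1, a docking protein that gathers the phosphatase SHP2 and PI3 kinase at activated receptors, had signals of 202.9 and 156.2 on the resistant arrays, against 116.6 and 106.6 on the original arrays. Both resistant arrays were the brighter. The log2 fold change was 0.66 ± 0.302 (SE) and did not pass (limma adjusted p = 0.688). A further probe set of Gab1 had signals of 195.2 and 144.6 on the resistant arrays and 86.2 and 69.5 on the original arrays, a log2 fold change of 1.09 ± 0.331 (SE; limma adjusted p = 0.392). In a limma fit with a term for the replicate number (a block), that further probe set passed (adjusted p = 0.0113), while the brighter one did not (adjusted p = 0.18). Attention to it was drawn after its values were seen. The remaining Gab1 probe set was dim and overlapped between the groups.

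Grb2, the adaptor that carries Sos to phosphorylated receptors, was measured by 2 probe sets that went opposite ways. The brighter had signals of 528.9 and 559.1 on the resistant arrays and 611.7 and 846.7 on the original arrays, a log2 fold change of -0.40 ± 0.214 (SE; limma adjusted p = 0.752). The other had 359.8 and 402.8 on the resistant arrays and 318.9 and 229.1 on the original arrays, a log2 fold change of 0.49 ± 0.248 (SE; limma adjusted p = 0.741). The groups did not overlap in either probe set, so no direction can be given for Grb2.

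Sos1, the exchange factor that loads RAS with GTP, had signals of 161.4 and 117.1 on the resistant arrays and 114.1 and 108.3 on the original arrays. Its log2 fold change was 0.30, and its difference within replicate number 2 was 0.11. Its relative Sos2 had 294.6 and 190.5 on the resistant arrays and 197.4 and 224.7 on the original arrays, and the groups overlapped. Shc1, the adaptor phosphorylated by ErbB receptors, had 505.1 and 466.3 on the resistant arrays and 626.8 and 503.8 on the original arrays, with overlap. Ptpn11, which encodes the phosphatase SHP2, had 2034.1 and 1973 on the resistant arrays and 2018.9 and 1932.7 on the original arrays. Its log2 fold change was 0.02, with a 95% interval from -0.34 to 0.38, the narrowest of the 6 adaptor and exchange factor genes. A dim further probe set of Ptpn11 gave -0.58 with overlapping arrays.

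Of the RAS genes, Nras was measured. It had signals of 897 and 924.9 on the resistant arrays, against 1079.3 and 1235.4 on the original arrays, so both resistant arrays were the dimmer. The log2 fold change was -0.34 ± 0.176 (SE) and did not pass (limma adjusted p = 0.742). The other 2 probe sets of Nras gave -0.36 and -0.39, and neither overlapped between the groups.

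Of the GTPase-activating proteins, which return RAS to its GDP-bound state, Rasa1 (p120 RasGAP) had signals of 1234.6 and 1131.5 on the resistant arrays and 955.6 and 789.1 on the original arrays. Its log2 fold change was 0.44 ± 0.183 (SE; limma adjusted p = 0.619). The other 2 probe sets of Rasa1 gave 0.46 and 0.41, and all 3 lay higher on both resistant arrays. Nf1, which encodes neurofibromin, overlapped, with 139.8 and 132.9 on the resistant arrays and 160.6 and 130.4 on the original arrays.

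In the RAF tier the groups overlapped in the brightest probe set of each gene. Araf had signals of 339.5 and 464.1 on the resistant arrays and 392.5 and 303 on the original arrays, with differences of opposite sign in the replicate numbers (-0.21 and 0.61). Braf had 79.6 and 84.9 on the resistant arrays and 104.2 and 71.2 on the original arrays, and its 95% interval ran from -0.88 to 0.74 on the log2 scale, so neither direction was detectable at this precision. The scaffold gene Ksr1, whose product holds RAF and its substrate together, had 228.9 and 160.2 on the resistant arrays and 217.9 and 196.6 on the original arrays. A further Ksr1 probe set below the filter had 120.2 and 51.1 on the resistant arrays, against 18.8 and 11.2 on the original arrays. Its original signals lay below the filter's signal of 49.1, so no fold is given, and it was singled out after its values were seen.

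The ERK-branch MAP2 kinases lay on opposite sides of 0. Map2k1 (MEK1) had signals of 1135.1 and 1294.5 on the resistant arrays, against 1530.4 and 1755.1 on the original arrays, a log2 fold change of -0.44 ± 0.175 (SE; limma adjusted p = 0.602). Its difference was -0.43 within replicate number 1 and -0.44 within number 2. Map2k2 (MEK2) had 1240.4 and 1263.4 on the resistant arrays, against 957.9 and 1144 on the original arrays, a log2 fold change of 0.26 ± 0.178 (SE; limma adjusted p = 0.843). The further probe set of Map2k2 gave 0.39 and also lay higher on both resistant arrays. The difference between the Map2k1 and Map2k2 values was not itself tested. Among the ERKs, Mapk6 (ERK3, an atypical MAP kinase) had 2044.6 and 2183.9 on the resistant arrays and 2444.6 and 3225.7 on the original arrays, a log2 fold change of -0.41 ± 0.183 (SE; limma adjusted p = 0.664). Its second probe set gave -0.29, again lower on both resistant arrays. Map2k5 and Mapk7 (ERK5), kinase and substrate of 1 module, had log2 fold changes of -0.21 and 0.41, and both overlapped in these probe sets. Of the 2 further probe sets of Map2k5, 1 gave -0.31 and lay lower on both resistant arrays. The other gave -0.09 with overlap.

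**Figure D2:**
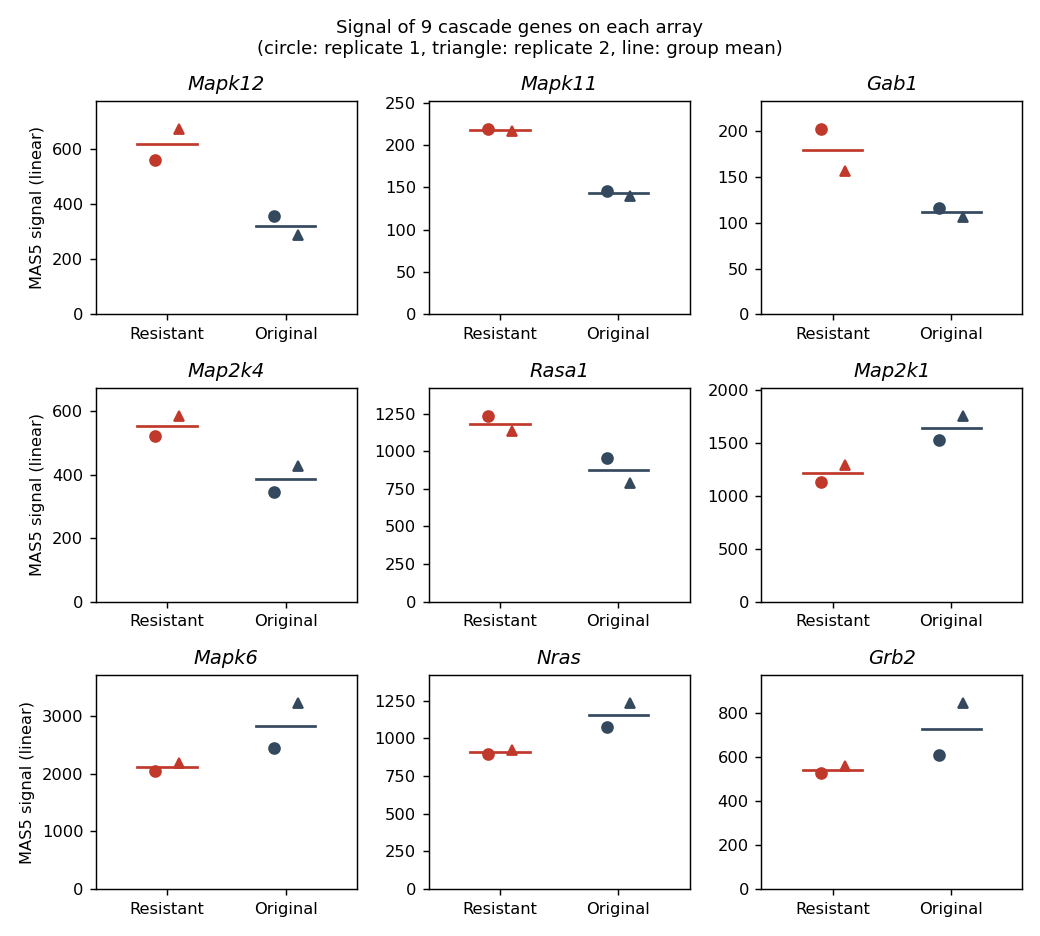
Each panel gives the MAS5 signal, on a linear axis from 0, of 1 of 9 cascade genes on the 2 resistant and 2 original arrays, with circles for replicate 1, triangles for replicate 2 and a line for the group mean. The groups do not overlap in any panel, and among these 9 Mapk12 has the largest log2 fold change, with means of 615 in the resistant pool and 322 in the original population.

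In the stress-activated arms, the groups overlapped in the brightest probe set of each of the 6 tested MAP3 kinases, with log2 fold changes from -0.19 for Map3k7 (TAK1) to 0.28 for Map3k5 (ASK1). Among their further probe sets, 1 of Map3k12 (DLK) lay higher on both resistant arrays, with 78.9 and 60.2 on the resistant arrays and 44.9 and 37.4 on the original arrays (log2 fold change 0.71, limma adjusted p = 0.796). So did 1 of Map3k7, by 0.04. Map2k4 (MKK4), which phosphorylates JNK and p38, had signals of 520.2 and 584.9 on the resistant arrays, against 343.9 and 426 on the original arrays. Its log2 fold change was 0.52 ± 0.216 (SE; limma adjusted p = 0.617), and its second probe set gave 0.36, higher on both resistant arrays as well. Map2k3 (MKK3), which activates p38, had a log2 fold change of -0.01 with overlapping arrays. Mapk8 (JNK1) had 362.7 and 378.9 on the resistant arrays, against 320.3 and 317.3 on the original arrays, a log2 fold change of 0.21, while a further probe set gave 0.00. Mapk9 (JNK2) gave 0.24 with overlap.

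Among the p38 genes, Mapk12 (p38 gamma) had signals of 558.6 and 672.1 on the resistant arrays, against 355 and 288 on the original arrays, means of 615 ± 80.3 and 322 ± 47.4 (SD, n = 2 each). Its log2 fold change was 0.65 within replicate number 1 and 1.21 within number 2, and lay above 98.8% of the tested genes. It passed in 1 of the 13 alternatives that measured it, the limma fit with the block (adjusted p = 0.000297), in which 5.82% of all tested genes passed, 2.73% higher and 3.09% lower. Mapk12 drew its error in that fit from a trend shared by all probe sets, so its gap between 0.65 and 1.21 did not enter. Over the 13 alternatives its adjusted p ran from 0.000297 to 0.512 and its value from 0.78 to 1.08. Mapk11 (p38 beta) had 219.4 and 216.9 on the resistant arrays, against 146 and 139.9 on the original arrays, a log2 fold change of 0.60 ± 0.269 (SE; limma adjusted p = 0.678), with a dim further probe set at 0.41 that overlapped. Mapk14 (p38 alpha) had 1120.5 and 1277.7 on the resistant arrays and 1179.3 and 1203.7 on the original arrays. Its log2 fold change was 0.01, with a 95% interval from -0.38 to 0.39. Mapk12 and Mapk11 were higher on both resistant arrays, and Mapk14 overlapped.

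Mapk12 and Mapk11 are also adjacent in the genome, on the same strand of mouse chromosome 15. Their upstream sequences (250 bases before the annotated start, RefSeq, GRCm38.p6, minus strand) are shown because both genes lay higher together. Mapk12 is at chr15:89140704-89140953 and Mapk11 at chr15:89149607-89149856. Capitals mark matches, on either strand, to the GC box (GGGCGG) and the E-box (CACGTG), which do not overlap each other here.
Mapk12: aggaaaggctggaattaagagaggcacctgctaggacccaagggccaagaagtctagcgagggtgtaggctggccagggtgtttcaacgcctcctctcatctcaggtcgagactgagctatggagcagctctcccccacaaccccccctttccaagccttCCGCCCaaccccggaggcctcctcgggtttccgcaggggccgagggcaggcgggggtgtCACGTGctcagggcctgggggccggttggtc
Mapk11: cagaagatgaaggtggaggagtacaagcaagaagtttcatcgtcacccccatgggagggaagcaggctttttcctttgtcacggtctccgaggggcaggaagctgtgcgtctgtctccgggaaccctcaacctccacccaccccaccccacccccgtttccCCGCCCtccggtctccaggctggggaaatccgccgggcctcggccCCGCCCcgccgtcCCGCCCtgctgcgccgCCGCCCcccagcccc
The Mapk12 window held 1 GC box and 1 E-box, and the Mapk11 window held 4 GC boxes and 0 E-boxes. Neither window held a TATA box (TATAAA), an AP-1 site (TGANTCA) or a CRE (TGACGTCA). Of 32851 promoter windows of the same length, 32.7% held a GC box, 6.02% an E-box, 12.4% a TATA box, 6.75% an AP-1 site and 1.55% a CRE. These matches describe letters in a window and are not binding sites.

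The cascade genes were set beside their chromosomal surroundings after their values were seen. Over the 307 tested genes of chromosome 15 the median log2 fold change was 0.29 and 85.3% were above 0, and over the 382 tested genes of chromosome 3 it was -0.30 and 14.9% were above 0, against 52.8% of all tested genes. Nras and Shc1 lie on chromosome 3 and both had negative values, and the value of Nras differed from that chromosome's median by -0.04. Mapk12 and Mapk11 exceeded the median of chromosome 15 by 0.64 and 0.31, with 13 and 38 of its genes higher still. Of the 24 tested genes nearest to each, 21 were above 0, with a median of 0.26. The third tested cascade gene of chromosome 15, Map3k12, had -0.02 in its brightest probe set and 0.34 and 0.71 in its other 2, so it lay on either side of that median depending on the probe set. Map2k1, Mapk6 and Map2k5 lie on chromosome 9, whose median was -0.10 over 423 genes, and all 3 had negative values. They differed from that median by -0.33, -0.31 and -0.11, with 382, 377 and 291 of its genes higher. Chromosome 19 had a median of -0.15 over 278 genes, with 27.3% above 0. Its tested cascade gene, Map3k11, had 0.10, while the median of the 24 tested genes nearest to it was -0.31.

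Each cascade gene was set beside the median of up to 12 tested genes on each side, 20 in all for Map3k12 and 24 for the others. Across the 32 cascade genes, the log2 fold change and that median correlated at a Pearson's r of 0.44 and a Spearman's rho of 0.42. Over the 7501 tested genes that could be placed, the same values were 0.31 and 0.32. The sign of 12 cascade genes (37.5%) was opposite to that of their neighbours' median, against 38.9% of the placed genes. Neighbouring genes share the same arrays and windows overlap, so these are descriptions. The part of chromosome-wide shifts in the cascade values was not tested.

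**Figure D3:**
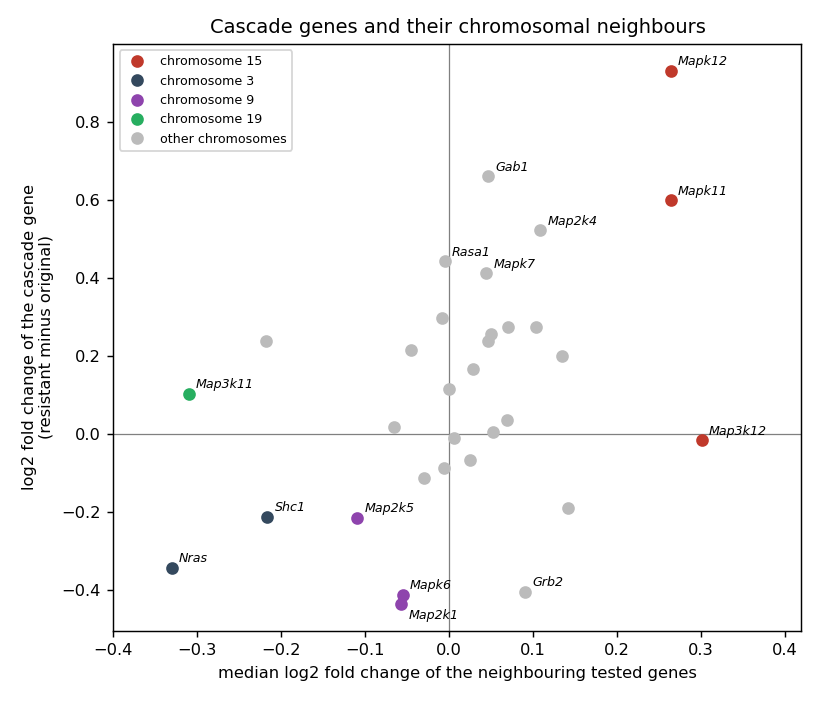
The vertical axis gives the log2 fold change of each of the 32 cascade genes, resistant minus original. The horizontal axis gives the median log2 fold change of up to 12 tested genes on each side of it. These were 20 genes in all for Map3k12 and 24 for every other gene. Colours mark chromosomes 15, 3, 9 and 19. Nras and Shc1 lie at the lower left with their neighbours on chromosome 3, Mapk12 and Mapk11 at the upper right, and 12 genes, among them Grb2, Map3k11 and Mapkapk2, lie on the opposite side of 0 from their neighbours.

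Of the kinases that MAP kinases activate, Mapkapk2 (MK2, the effector of p38) had signals of 721.6 and 698.2 on the resistant arrays, against 608.3 and 594.2 on the original arrays, a log2 fold change of 0.24. It lay higher on both resistant arrays and did not pass (limma adjusted p = 0.877). Rps6ka3 (RSK2, an effector of ERK) overlapped, and its differences within the replicate numbers had opposite signs, 0.60 and -0.37.

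Over the whole cascade 17 of 32 genes (53.1%) had the same sign within both replicate numbers, against 59.6% of all tested genes. Further probe sets gave a separate reading of the same arrays. Of 21 cascade genes with more than 1 tested probe set, 14 (66.7%) had 1 sign in all of them, against 62.8% of all such genes. In 6 of the 21 (28.6%) every tested probe set separated the groups the same way, against 14% of 3197 genes. These were Gab1, Map2k2, Map2k4 and Rasa1, higher in the resistant pool, and Mapk6 and Nras, lower.

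**Figure D4:**
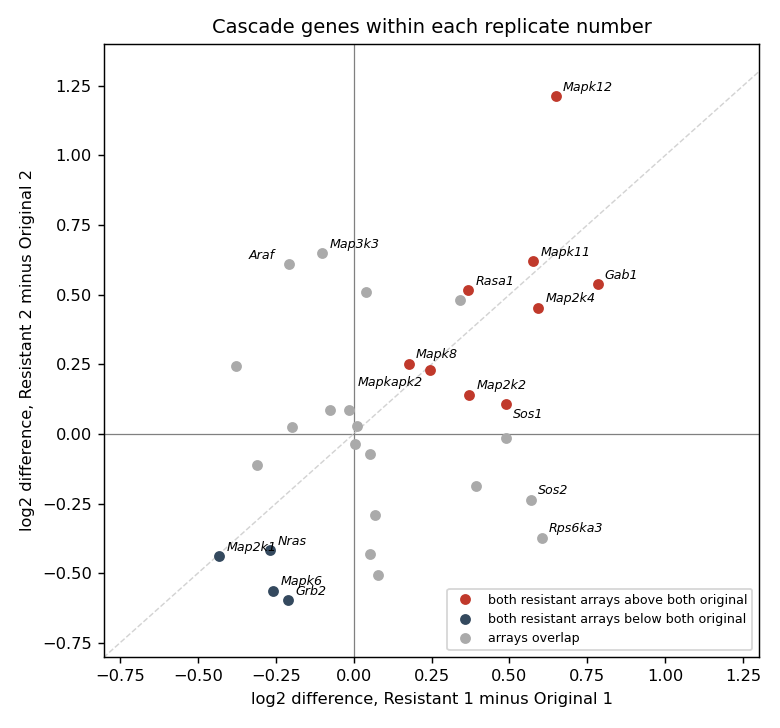
Each point is a tested cascade gene, with the log2 difference of Resistant 1 minus Original 1 on the horizontal axis and of Resistant 2 minus Original 2 on the vertical axis, and a dashed line of equality. Mapk12 lies at 0.65 and 1.21, the 4 genes below the original population on both arrays sit at the lower left, and Araf and Rps6ka3 lie in quadrants of opposite sign.

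The 5 cascade genes below the filter were Map2k6, Map3k1, Map3k2, Map3k8 and Mapk13. Their highest signal on any array was 72.3, for Map2k6 (MKK6, which activates p38) on Resistant 2, where its other arrays read 45.6 for the resistant pool and 45.1 and 35.7 for the original population. Map3k1 and Map3k2 overlapped between the groups, as did Map3k8 (TPL2) and Mapk13 (p38 delta), whose signals ranged from 2.7 to 27.7. Dim MAS5 signals carry large relative errors.

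Of 70 other genes of the pathway, 47 had a probe set of their own and 33 were tested, with a median log2 fold change of 0.02. In the limma fit 0 passed, beside 2 with positive and 2 with negative values at an unadjusted p under 0.05 (12.1%, against 7.9% of all tested genes). In the fit with the block 2 passed, 1 higher and 1 lower (6.06%, near the 5.82% of all tested genes). Mknk2, a kinase that ERK and p38 activate, had signals of 1831.3 and 958.2 on the resistant arrays and 984.5 and 719.7 on the original arrays (log2 fold change 0.65, limma block adjusted p = 0.00617), with arrays that overlapped. Rasa2, a further GTPase-activating protein for RAS, had 231.4 and 196.3 on the resistant arrays and 346.2 and 344.5 on the original arrays (log2 fold change -0.69, limma block adjusted p = 0.0444). Mapk10 (JNK3) lay below the filter, with 154.4 and 87.4 on the resistant arrays, against 24.4 and 11.6 on the original arrays. No fold is given against such dim signals, and the identifier of its probe set carries the x mark, used by the manufacturer where probes may also hybridise to other genes.

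Genes whose transcripts are known to follow ERK activity gave no call either. Of 10 listed, 9 had a probe set, 5 were tested and 0 passed in the limma fit with or without the block, and 0 reached an unadjusted p under 0.05 in the fit without it. All 5 overlapped between the groups. Dusp6, an ERK phosphatase induced by ERK itself, had signals of 251.2 and 427.9 on the resistant arrays and 200.2 and 311.4 on the original arrays, and lay higher on the array numbered 2 in both groups. Its log2 fold change was 0.39, with 0.32 within replicate number 1 and 0.45 within number 2. Phlda1 had 1820.1 and 2246.9 on the resistant arrays and 1159.9 and 1925.7 on the original arrays, and the receptor gene Epha2 had 476.6 and 912.1 on the resistant arrays and 861.7 and 1048.4 on the original arrays. Their log2 fold changes were 0.43 and -0.53. In the limma fit with the block their unadjusted p was 0.00547 and 0.00381, and their adjusted p was 0.0833 and 0.0655. At the looser level of an unadjusted p under 0.05, that fit held 15.7% of all probe sets. Spry2 gave -0.17 and Ccnd1 -0.21.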

How the data were processed

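Per probe set and array, the authors deposited 1 linear intensity, the MAS5 signal, made with MAS5 per the submitters' processing notes. The version and genome build are not given in the sources used here. MAS5 scales arrays to a common level, and the deposited 2% trimmed means lay between 496.8 and 497.8. Arrays were rescaled to a common trimmed mean, 64 controls were left out, and log2(signal + 3) was taken, 3 being the rounded 10th percentile of signals. The filter removed probe sets with a mean log2 value under its 40th percentile, which corresponds to a signal of 49.1. limma 3.58.1 in R 4.3.3 (lmFit, eBayes with a mean-variance trend) fitted 13576 probe sets; p-values are two-sided and Benjamini-Hochberg adjusted over all of them. The procedure was tested on simulated data, and the outcome is not reported here. For arrays their number limits the precision.

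The members and lists were chosen with earlier results of these data known. Named genes were those with the 6 largest positive and the 6 largest negative values, those called in the main or block fit, and fixed genes of each tier; Gab1's further probe set, Ksr1's dim probe set, Mapk10, chromosomal neighbours and promoter motifs were added after values were seen. Alternatives covered the pseudocount, filter, normalization, variance trend, replicate block, left-out arrays and choice of probe set. Symbols came from the platform annotation, and gene order and promoters from RefSeq GRCm38.p6.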

Additional observations from a re-analysis of the deposited data

How the results depend on the processing

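Across the 14 alternatives 0 cascade genes passed, with the exception of the fit with a replicate block, in which 1 gene, Mapk12, passed. No label ties a number to an experiment. Deviations from the group means correlated at 0.35 between arrays of the same number over 13576 probe sets. The block fit leaves 1 residual degree of freedom and called 710 probe sets in all, against 23 without it. Its prior degrees of freedom were infinite, so every error came from the shared trend and no probe set's own spread entered its p. At an unadjusted p under 0.05 the cascade count was 9 (28.1%, against 15.7% of all probe sets in the same fit) with the block, 4 (12.5%, against 6.79%) without a variance trend and 4 (10.8%, against 6.6%) without the filter, beside 6 (18.8%, against 7.35%) as reported. When 1 array was left out it was 2 to 5 (6.25% to 15.6%, against 6.22% to 8.63%). The number of probe sets called over the whole table was 0 without a variance trend (922 at an unadjusted p under 0.05), 5 without the filter, 10 with a filter at the 60th percentile and 8 with quantile normalization, and 68 to 111 when 1 array was left out. The median of the cascade genes kept its sign, from 0.05 without Resistant 1 to 0.15 without Resistant 2 among the left-out arrays, and was 0.03 with the filter at the 60th percentile, where 22 were tested. Of 432 gene values under alternatives, 28 had the opposite sign to the reported value, in genes that passed in no fit, and 17 of 32 genes kept their sign in all. Grb2 had a value of 0.04, against -0.40, when its probe sets were averaged. Dim probe sets and 2 arrays a group limit what could be detected.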
